A study of Mus musculus with 8 samples.

Results

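Genes of striatal medium spiny neurons (9 genes: Ppp1r1b, Rgs9, Adora2a, Gpr6, Rasd2, Pde10a, Adcy5, Gng7 and Foxp1) were followed in 8 RNA-seq libraries of mouse brain. They were chosen by name, as genes of this cell type, but with earlier results of these data known. The choice was made from the 54532 genes listed for the PTS + RS and RS libraries and the 28229 listed for the RGFP109 and vehicle libraries. All 9 were found in both tables and all 9 passed the filter on low counts in each. The PTS + RS group (2 libraries) had a photothrombotic stroke of the right cortex, made by illuminating the dye Rose Bengal, followed by daily restraint stress, and the RS group (2 libraries) had restraint stress alone. The RGFP109 group (2 libraries) consisted of PTS + RS mice that received RGFP109 at 60 mg/kg once daily. RGFP109 inhibits histone deacetylases of class I. The authors used it against HDAC3 and describe it as selective for HDAC1 and HDAC3. The vehicle group (2 libraries, named NaCl in the labels) consisted of PTS + RS mice without the inhibitor. All mice were C57BL/6 and all tissue was collected on Day 21, so that restraint was common to all 8 libraries and no library came from an unstressed mouse. The labels give cortex for the PTS + RS libraries, the RS libraries and replicate 1 of RGFP109 and vehicle, and amygdala for replicate 2 of RGFP109 and vehicle. Whether a library holds tissue of a single mouse or of several is not given in the sources used here, so the p-values measure only the spread between these libraries.

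Medium spiny neurons are the GABAergic projection neurons of the striatum and make up most of its neurons. Those of the direct pathway carry the D1 dopamine receptor, which raises cyclic AMP through the G protein Golf and adenylyl cyclase, and those of the indirect pathway carry the D2 dopamine receptor, which lowers it, together with the adenosine receptor Adora2a, which raises it. Dense expression of this signalling machinery separates striatum from cerebral cortex and from most of the amygdala, although several of its genes are also used at lower levels by cortical and other forebrain neurons. The levels of the 9 genes were therefore used to judge the region of each library. In bulk tissue, fewer cells of a type and less RNA per cell cannot be told apart.

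Each of the 9 genes was protein coding and had the same coordinates in the deposited tables (GRCm38) and in GENCODE M21. Rgs9 (chr11:109225355-109298129), Gpr6 (chr10:41069977-41072285), Gng7 (chr10:80948624-81014945) and Foxp1 (chr6:98925338-99522721) lie on the minus strand, and Ppp1r1b (chr11:98348404-98357796), Adora2a (chr10:75316877-75334784), Rasd2 (chr8:75213944-75224113), Pde10a (chr17:8525372-8986648) and Adcy5 (chr16:35154877-35305738) on the plus strand. RefSeq promoter sequences (GRCm38.p6), each running from 250 bases before to 50 bases after a transcription start, were at hand for 7 of the 9 genes (11 promoters), and those of Ppp1r1b and Adora2a were not among them. The promoters of 3 genes are shown for genes that were far higher in the amygdala-labelled libraries, since each holds a different combination of the motifs searched, with the motifs in capitals. The motifs, chosen after the promoters had been looked at and searched on both strands, were the cyclic AMP response element TGACGTCA, the TATA box TATAAA and the GC box GGGCGG, which do not overlap each other here. Each sequence is written 5′ to 3′ along the strand of its gene.
Rgs9 promoter, chr11:109298132-109298431, minus strand: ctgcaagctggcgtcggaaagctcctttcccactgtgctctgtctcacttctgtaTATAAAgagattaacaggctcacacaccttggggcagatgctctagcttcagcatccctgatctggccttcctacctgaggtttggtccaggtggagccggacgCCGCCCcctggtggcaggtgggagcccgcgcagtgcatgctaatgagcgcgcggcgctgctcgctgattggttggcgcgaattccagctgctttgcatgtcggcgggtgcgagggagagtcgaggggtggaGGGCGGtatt
Gpr6 promoter, chr10:41072241-41072540, minus strand: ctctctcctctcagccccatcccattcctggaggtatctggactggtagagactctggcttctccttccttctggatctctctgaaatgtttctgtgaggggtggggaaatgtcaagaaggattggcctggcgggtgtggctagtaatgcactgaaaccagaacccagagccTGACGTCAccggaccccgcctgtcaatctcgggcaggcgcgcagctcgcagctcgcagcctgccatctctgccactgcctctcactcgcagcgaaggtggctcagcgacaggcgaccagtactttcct
Pde10a promoter, chr17:8801495-8801794, plus strand: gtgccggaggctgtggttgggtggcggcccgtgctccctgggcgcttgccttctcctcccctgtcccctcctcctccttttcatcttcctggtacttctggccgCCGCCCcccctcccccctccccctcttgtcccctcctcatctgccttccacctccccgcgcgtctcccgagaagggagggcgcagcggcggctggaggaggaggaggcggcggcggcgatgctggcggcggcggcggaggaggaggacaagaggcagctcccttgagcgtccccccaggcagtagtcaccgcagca
The cyclic AMP response element was found in 1 of the 11 promoters (Gpr6) and in 1.79% of the 32851 mouse promoters of the same length. The letters of the TATA box were found, at any position, in 1 of the 11 (Rgs9) and in 13.6% of all promoters. In Rgs9 they lie near the 5′ end of the sequence, far before the start, and such a match does not show a working TATA box. The GC box was found in 7 of the 11 and in 35.7% of all promoters. The Pde10a start shown lies 276373 bases inside the deposited gene and marks 1 of its alternative transcripts, which gene counts do not separate.

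Each library had between 15902013 and 21712033 counts on genes. Where a pair of values is given for the amygdala-labelled libraries, RGFP109 comes first and vehicle second. Levels are given as CPM, the counts scaled to a common library size within each table, and levels of different genes are compared only per length, as deposited FPKM. The labelled regions were checked first, because the region decides how the striatal genes can be read. A list of 10 olfactory bulb genes summed to 1618 CPM in vehicle replicate 1, labelled cortex, and to between 27.9 and 48.1 CPM in the other 7 libraries. S100a5 and Omp, genes of the olfactory sensory neurons whose axons enter the bulb, stood at 64.3 and 116 CPM in that library, S100a5 had no count in the other 7, and Omp was at most 0.467 CPM there. Fezf2, a transcription factor of deep-layer cortical neurons, was at 4.10 CPM in vehicle replicate 1 and between 45.4 and 53.0 CPM in the other 5 cortex-labelled libraries. Of the 12 genes of the cerebral cortex list, 7 were lower in vehicle replicate 1 than in all of those 5, and 4 (Cux2, Lamp5, Mef2c and Rasgrf2) were higher, among them Mef2c at 406 CPM against at most 265 CPM, whereas all 10 olfactory bulb genes were higher there. These 5 also held hippocampal genes (6 genes, 586 to 873 CPM in sum), which were at 173 CPM in vehicle replicate 1 and at 147 and 128 CPM in the amygdala-labelled libraries. A list of 12 amygdala genes did not separate the labelled regions, with 398 and 403 CPM in sum in the amygdala-labelled libraries and 323 to 473 CPM in the cortex-labelled libraries. Rspo2, a marker of basolateral amygdala, was at 17.8 and 14.0 CPM in the amygdala-labelled libraries and between 17.5 and 41.0 CPM in the 5 cortex-labelled libraries other than vehicle replicate 1. Prkcd, a marker of the lateral part of the central amygdala, was at 17.9 and 21.9 CPM against 15.5 to 41.2 CPM in the same 5. Within the RGFP109 and vehicle libraries alone, 4 of the 12 amygdala genes, Prkcd among them, were higher without overlap in the amygdala-labelled libraries. There 2 of the 12 were lower without overlap, beside 3793 higher and 3943 lower of 17565 tested genes. Of the 12 amygdala genes, Lypd1 (51.0 and 47.3 CPM against at most 37.5 CPM) and Tac2 (4.86 and 6.52 CPM against at most 4.38 CPM) were above all 6 cortex-labelled libraries in both amygdala-labelled libraries, Crh and Cartpt were above the 5 other than vehicle replicate 1, and Etv1 was below all 6. The markers thus set vehicle replicate 1 apart from the other cortex-labelled libraries, and the amygdala list as a whole did not set the amygdala-labelled libraries apart, so each library is called below by its label and the main results that rest on vehicle replicate 1 are also given without it.

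**Figure D1:**
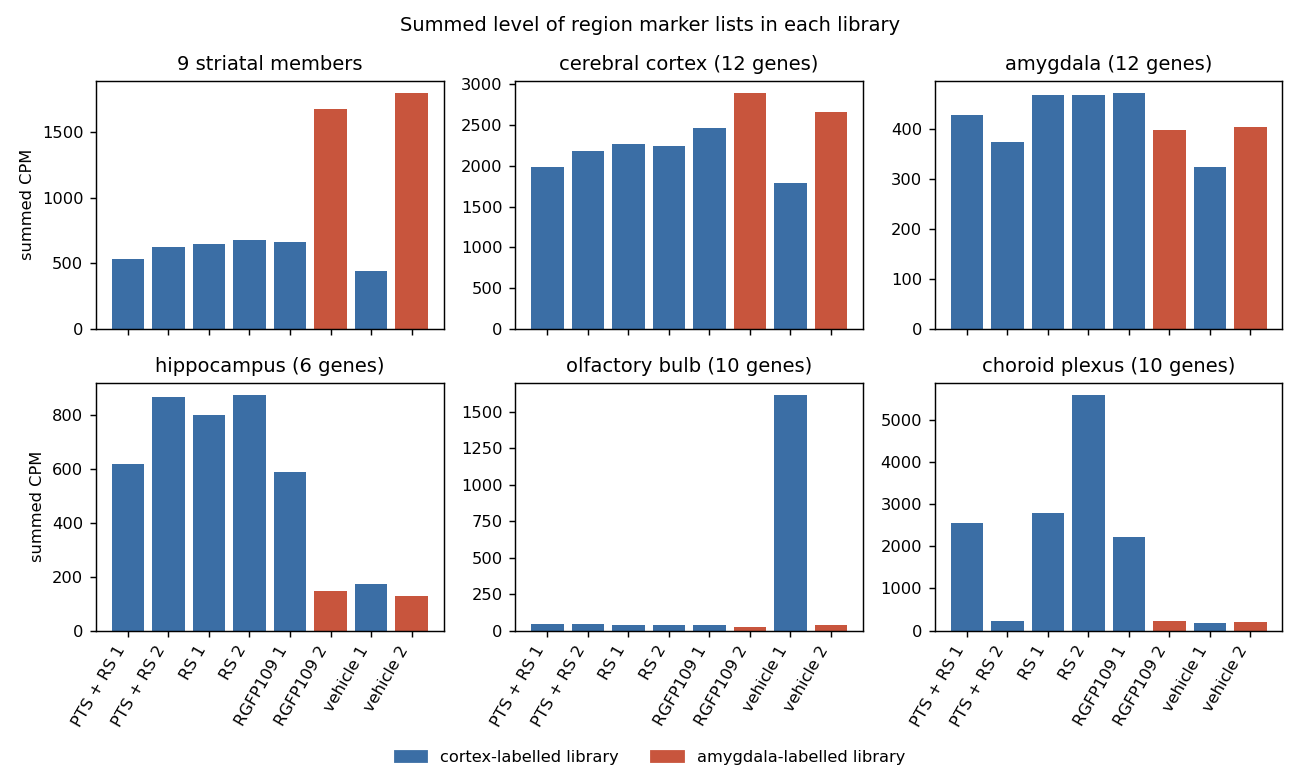
Summed CPM of 6 marker lists (vertical axes, linear) in each of the 8 libraries (horizontal axes), with cortex-labelled libraries in blue and amygdala-labelled libraries in red, 1 bar for each library. The striatal genes sum to 1672 and 1799 CPM in the amygdala-labelled libraries and to 438 to 677 CPM in the others, the amygdala list does not follow the label, and the olfactory bulb list is high in vehicle replicate 1.

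The striatal genes separated the amygdala-labelled from the cortex-labelled libraries. The 9 genes summed to 1672 CPM in RGFP109 replicate 2 and 1799 CPM in vehicle replicate 2. In the cortex-labelled libraries they summed to 530.0 and 620.3 CPM (PTS + RS), 642.5 and 677 CPM (RS), 661 CPM (RGFP109 replicate 1) and 438 CPM (vehicle replicate 1). For 9 of 9 genes both amygdala-labelled libraries were above all 6 cortex-labelled libraries, where 10% of the 16947 genes tested in both tables showed this pattern. The 2 tables were normalised separately, and with all 8 libraries scaled together it held for the same 9 of 9 genes.

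Among the signalling proteins inside the cell, Ppp1r1b, which encodes a protein phosphatase inhibitor switched on by cyclic AMP, was at 33.2 and 33.0 CPM in the PTS + RS libraries and 47.4 and 66.3 CPM in the RS libraries. In replicate 1 it was at 41.4 CPM (RGFP109) and 31.3 CPM (vehicle), and in replicate 2 at 298 CPM (RGFP109) and 388 CPM (vehicle). The lower amygdala-labelled library was thus 4.50-fold above the highest cortex-labelled library, which was RS replicate 2. Rgs9, which speeds the shut-off of G protein signals from dopamine and opioid receptors, was at 15.6 and 15.2 CPM (PTS + RS), 15.9 and 17.2 CPM (RS), 15.7 CPM (RGFP109 replicate 1) and 16.1 CPM (vehicle replicate 1). It stood at 97.3 and 110.3 CPM in the amygdala-labelled libraries of RGFP109 and vehicle. Of the 9 genes it varied least among the 6 cortex-labelled libraries, 15.2 to 17.2 CPM, and vehicle replicate 1 lay inside the range of the other 5. Rasd2, a small GTPase known as Rhes, was at 41.1 and 56.2 CPM (PTS + RS), 50.9 and 59.9 CPM (RS), 53.3 CPM (RGFP109 replicate 1) and 74.7 CPM (vehicle replicate 1), against 155 and 148 CPM in the amygdala-labelled libraries. Here vehicle replicate 1 was the highest of the cortex-labelled libraries.

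Both receptors of the list had few counts in the cortex-labelled libraries. Adora2a, the adenosine receptor of indirect-pathway neurons, was at 2.51 and 2.87 CPM (PTS + RS), 2.65 and 1.96 CPM (RS), 2.16 CPM (RGFP109 replicate 1) and 7.34 CPM (vehicle replicate 1). It reached 45.0 and 49.9 CPM in the amygdala-labelled libraries, 6.14-fold above the highest cortex-labelled library, and this was the widest gap among the 9 genes. Gpr6, an orphan receptor of indirect-pathway neurons that raises cyclic AMP without a known ligand, had between 4 and 47 counts in each cortex-labelled library. Its level there was 1.28 and 0.239 CPM (PTS + RS), 1.21 and 0.568 CPM (RS), 2.98 CPM (RGFP109 replicate 1) and 1.76 CPM (vehicle replicate 1). In the amygdala-labelled libraries it was at 11.4 and 16.5 CPM (244 and 304 counts). The levels of Gpr6 in the cortex-labelled libraries rest on few counts and spread more widely, relative to their size, than those of the other 8 genes.

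Among the enzymes and the G protein subunit of the cyclic AMP pathway, Pde10a, which breaks down cyclic AMP and cyclic GMP, was at 82.0 and 90.7 CPM (PTS + RS), 90.3 and 96.5 CPM (RS), 97.3 CPM (RGFP109 replicate 1) and 49.0 CPM (vehicle replicate 1). It stood at 343 and 337 CPM in the amygdala-labelled libraries, whose values differed by less than those of the cortex-labelled libraries. Adcy5, the main adenylyl cyclase of the striatum, was at 143 and 146 CPM (PTS + RS), 177 and 179 CPM (RS), 206 CPM (RGFP109 replicate 1) and 162 CPM (vehicle replicate 1), and at 370.5 and 404 CPM in the amygdala-labelled libraries. Gng7, the gamma subunit that assembles with Golf, was at 133 and 197 CPM (PTS + RS), 179.6 and 186 CPM (RS), 161 CPM (RGFP109 replicate 1) and 64.6 CPM (vehicle replicate 1). The amygdala-labelled libraries held 226 and 236 CPM, only 1.15-fold above the highest cortex-labelled library, the narrowest gap among the 9 genes. Foxp1, a forkhead transcription factor that cortical projection neurons also express, was at 77.6 and 79.0 CPM (PTS + RS), 77.6 and 69.6 CPM (RS), 81.3 CPM (RGFP109 replicate 1) and 31.7 CPM (vehicle replicate 1), against 125 and 109.9 CPM in the amygdala-labelled libraries. For Gng7 and Foxp1, vehicle replicate 1 lay far below the other 5 cortex-labelled libraries.

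**Figure D2:**
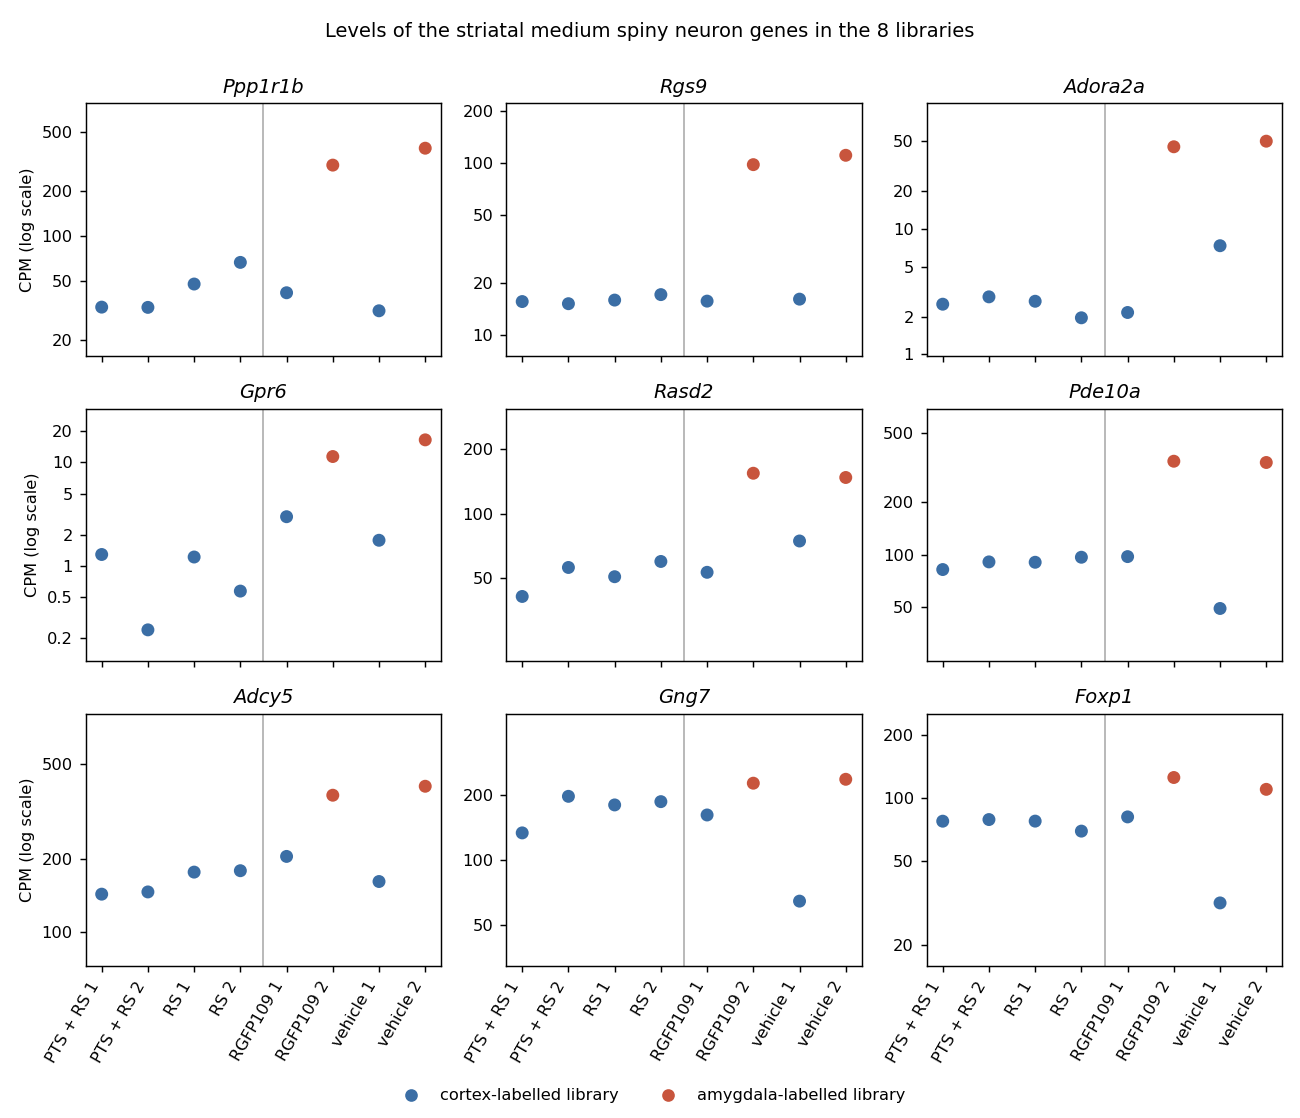
CPM of each of the 9 genes (vertical axes, log scale, a separate range in each panel) in the 8 libraries (horizontal axes), 1 point for each library, blue for cortex-labelled and red for amygdala-labelled. The grey line parts the tables, which were normalised separately. The red points lie above all blue points in each panel, by 1.15-fold for Gng7 and 6.14-fold for Adora2a when the lowest red point is set against the highest blue one.

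Vehicle replicate 1 departed from the other cortex-labelled libraries in both directions. It was below all 5 of them for Ppp1r1b, Pde10a, Gng7 and Foxp1 and above all 5 for Adora2a and Rasd2, and it lay inside their range for Rgs9, Gpr6 and Adcy5. RGFP109 replicate 1, the other cortex-labelled library of the same table, lay inside the range of the PTS + RS and RS libraries for 5 genes and above it for Gpr6, Pde10a, Adcy5 and Foxp1, at 2.98, 97.3, 206 and 81.3 CPM.

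Per length, the order of the genes differed between the labelled regions. In the amygdala-labelled libraries Ppp1r1b had the highest FPKM (102 and 132), above Gng7 (59.8 and 62.1), Adcy5 (51.6 and 56.0) and Rasd2 (48.7 and 46.3). Adcy5 and Gng7 did not overlap, and neither did Adcy5 and Rasd2, although each pair was separated by little. Pde10a followed at 26.7 and 26.2 FPKM, then Rgs9 (15.2 and 17.2) and Adora2a (14.7 and 16.2), whose ranges overlapped, and then Foxp1 (9.10 and 7.97) and Gpr6 (6.39 and 9.22), whose ranges overlapped as well. In the cortex-labelled libraries Gng7 was the highest of the 9 genes except in vehicle replicate 1, where Rasd2 (23.2 FPKM) and Adcy5 (22.2 FPKM) were above it (16.9 FPKM). Gng7 ranged from 34.9 to 51.7 FPKM in the other 5, Adcy5 from 19.7 to 28.6, Rasd2 from 12.8 to 18.8 and Ppp1r1b from 11.2 to 22.5, and the range of Ppp1r1b overlapped those of Adcy5 and Rasd2. Pde10a (6.32 to 7.56 FPKM), Foxp1 (5.04 to 5.90) and Rgs9 (2.37 to 2.68) followed without overlap, and Adora2a (0.636 to 0.934) and Gpr6 (0.133 to 1.67) stood last with ranges that overlapped. Ppp1r1b thus stood first in the amygdala-labelled libraries and behind Gng7 and Adcy5 in each of these 5.

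The amygdala-labelled and cortex-labelled libraries of the RGFP109 and vehicle mice were compared with 2 libraries on each side, using the quasi-likelihood test of edgeR and adjusting p-values over 17565 genes by the method of Benjamini and Hochberg. Calls needed both an adjusted p below 0.05 and a change of 2-fold or more (1 on the log2 scale). The fitted log2 fold change was above 1 for 9 of 9 genes, whereas 5.26% of all tested genes reached this size in that direction. It was 3.31 ± 0.584 (SE) for Adora2a, 3.24 ± 0.244 for Ppp1r1b, 2.70 ± 0.149 for Rgs9, 2.56 ± 0.374 for Gpr6 and 2.22 ± 0.361 for Pde10a. Smaller values were fitted for Rasd2 (1.24 ± 0.206), Adcy5 (1.08 ± 0.189), Foxp1 (1.06 ± 0.458) and Gng7 (1.03 ± 0.447). The groups did not overlap for any of the 9 genes, and 21.6% of all genes were higher without overlap. Of the 9 genes, 7 had an unadjusted p under 0.05 (6.81% of all genes were higher at that level), the exceptions being Gng7 and Foxp1.

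No gene of the 9 was called, and neither was any gene of the 17565 in the higher (0.0%) or lower direction, by the quasi-likelihood test of edgeR (Benjamini-Hochberg adjusted). The adjusted p was smallest for Rgs9 (0.0853) and Ppp1r1b (0.128), was between 0.234 and 0.262 for 5 genes and was 0.489 for Gng7 and Foxp1. The cortex-labelled side of this fit holds vehicle replicate 1. Without that library, 6 of the 9 genes were called higher beside 717 genes in all (4.08% of those tested), and the log2 fold change was 4.47 for Adora2a, 3.06 for Ppp1r1b and 2.73 for Rgs9, with Gng7 at 0.53 and Foxp1 at 0.54. Without RGFP109 replicate 1, which leaves vehicle replicate 1 as the only cortex-labelled library, 9 of 9 were called higher beside 1369 genes in all, with Gng7 at 1.84 and Foxp1 at 1.89. In both fits a single library stood for the cortex-labelled side and was assumed to vary like the amygdala-labelled libraries. Markers of other cells moved with this comparison too. Microglial genes (10) summed to 555 and 629 CPM in the amygdala-labelled libraries and to 377 and 296 CPM in the cortex-labelled libraries of the same table, and oligodendrocyte genes (10) to 4632 and 5143 CPM against 3238 and 3236 CPM, and their part in the result was not tested. The olfactory bulb list summed to 27.9 and 35.9 CPM in the amygdala-labelled libraries and to 38.7 to 48.1 CPM in the 5 cortex-labelled libraries other than vehicle replicate 1. Of its genes, S100a5 was at 0 and Omp at 0.187 and 0.381 CPM. Calb2 (11.2 and 14.3 CPM) was below those 5 (26.5 to 32.1 CPM), and Cdhr1 (5.66 and 8.86 CPM) overlapped them (6.56 to 10.2 CPM). Trh, at 7.39 and 6.80 CPM, was above those 5 (0.189 to 0.642 CPM), and so was Th, at 1.40 and 2.77 CPM (0.359 to 1.23 CPM).

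**Figure D3:**
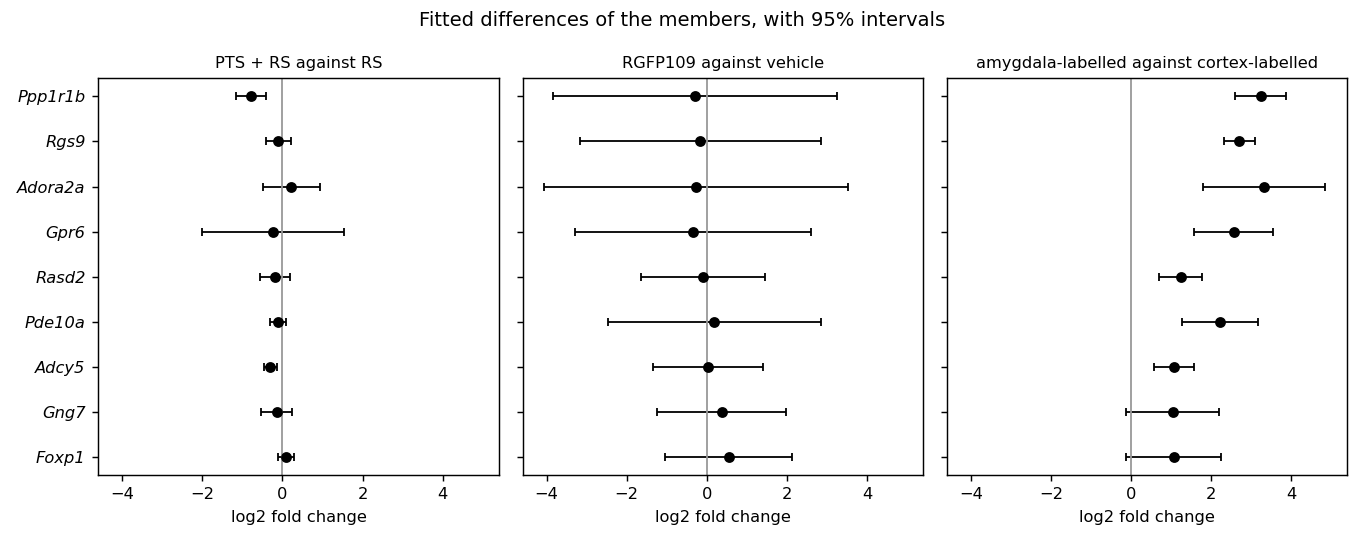
Fitted log2 fold change of each of the 9 genes (horizontal axes) in 3 comparisons, each with 2 libraries against 2, with points for the estimates and bars for 95% intervals from edgeR's quasi-likelihood fit. The estimates lie between -0.78 and 0.22 for PTS + RS against RS, between -0.34 and 0.54 with wide intervals for RGFP109 against vehicle, and between 1.03 and 3.31 for amygdala-labelled against cortex-labelled libraries.

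The difference between labelled regions had the same direction in each treatment. Between the libraries of RGFP109 the log2 ratio of amygdala-labelled to cortex-labelled ranged from 0.49 (Gng7) to 4.39 (Adora2a), with a median of 1.82 over the 9 genes. Between the libraries of vehicle it ranged from 0.98 (Rasd2) to 3.63 (Ppp1r1b), with a median of 2.77. Each of these ratios sets 1 library against 1 and has no replicate check.

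Other genes of the same neurons were counted in lists grouped by role. Both amygdala-labelled libraries were above all 6 cortex-labelled libraries for 23 of 33 further striatal genes, and above the 5 without vehicle replicate 1 for 29 of 33. Of the 16947 genes tested in both tables, 1703 were above all 6. The share of all genes above the 5 was not counted, and leaving out a library makes that pattern easier to meet for any gene. Among direct-pathway genes, 5 of 6 were above all 6 cortex-labelled libraries in both amygdala-labelled libraries. Drd1, the D1 dopamine receptor, was at 49.2 and 49.0 CPM against 3.77 to 6.66 CPM, Tac1, the substance P precursor, at 39.0 and 44.0 CPM against 6.42 to 9.39 CPM, and Isl1, a transcription factor of developing direct-pathway neurons, at 1.92 and 2.77 CPM against at most 0.252 CPM. The exception was Chrm4, a muscarinic receptor, at 27.5 and 27.9 CPM against 30.6 CPM in vehicle replicate 1 and 10.04 to 17.8 CPM in the other 5. Among 3 measured indirect-pathway genes (Gpr52 was not analysed here), Drd2, the D2 dopamine receptor, was at 39.0 and 37.6 CPM against 1.43 to 3.64 CPM, and Penk, the enkephalin precursor, at 212 and 224 CPM against 11.5 to 16.3 CPM in 5 cortex-labelled libraries and 127 CPM in vehicle replicate 1. Sp9, a transcription factor of indirect-pathway and olfactory bulb neurons, was highest in that library, at 10.1 and 12.6 CPM in the amygdala-labelled libraries, 83.2 CPM in vehicle replicate 1 and 5.57 to 9.40 CPM in the rest.

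Of 10 further genes of cyclic AMP and G protein signalling, 9 were above all 6 cortex-labelled libraries. Gnal, the alpha subunit of Golf, was at 234 and 231 CPM against 101 to 129.8 CPM. Cnr1, the cannabinoid receptor, did not separate, at 204 and 156 CPM against 87.8 to 236 CPM. Of 8 transcription factors, 4 separated from all 6, among them Foxp2 (23.7 and 17.6 CPM against 16.1 CPM in vehicle replicate 1 and 1.26 to 3.33 CPM in the other 5) and Six3 (7.24 and 11.9 CPM against 0.228 to 2.21 CPM). Bcl11b, needed for medium spiny neuron differentiation and also present in deep cortical layers, did not, at 137 and 133 CPM against 131 to 201 CPM. Meis2, which striatal and olfactory bulb neurons both express, was at 144 and 148 CPM in the amygdala-labelled libraries, 628 CPM in vehicle replicate 1 and 43.2 to 62.2 CPM in the rest. Of 6 genes of excitability and postsynaptic structure, 3 separated from all 6, with Scn4b, a sodium channel beta subunit, at 321 and 292 CPM against 16.3 to 27.1 CPM.

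By edgeR's quasi-likelihood test none of these 33 genes was called in the comparison of labelled regions, as no gene was, and 27 of 33 had a log2 fold change above 0 (20 higher and 1 lower at an unadjusted p under 0.05, beside 6.81% and 4.4% of all genes). The median log2 fold change was 2.43 for the direct-pathway list, 1.60 for the indirect-pathway list, 1.05 for cyclic AMP signalling, 0.90 for transcription factors and 0.44 for excitability, beside 2.22 for the 9 genes and -0.03 for all tested genes. Within the lists the values ran from 0.19 (Chrm4) upwards for the direct pathway, from -1.98 (Sp9) to 3.49 (Drd2) for the indirect pathway, from 0.15 (Cnr1) upwards for cyclic AMP signalling, from -1.24 (Meis2) to 4.37 (Six3) for transcription factors and from -0.15 (Kcnip2) to 4.07 (Scn4b) for excitability. Without vehicle replicate 1, 30 of the 33 were above 0 and 18 were called higher, and the medians became 2.09, 3.60, 1.11, 1.34 and 0.81 in the same order, beside 1.82 for the 9 genes and 0.01 for all tested genes. The cerebral cortex list (12 genes) was not lower in the amygdala-labelled libraries, with 2896 and 2658 CPM in sum against 1788 to 2469 CPM. Of its genes, Tbr1, a transcription factor of deep-layer neurons, was at 154 and 130.5 CPM against 49.9 to 72.9 CPM, while Neurod6, of cortical and hippocampal excitatory neurons, was at 50.8 and 52.7 CPM against 110.0 to 176 CPM in the 5 cortex-labelled libraries other than vehicle replicate 1.

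**Figure D4:**
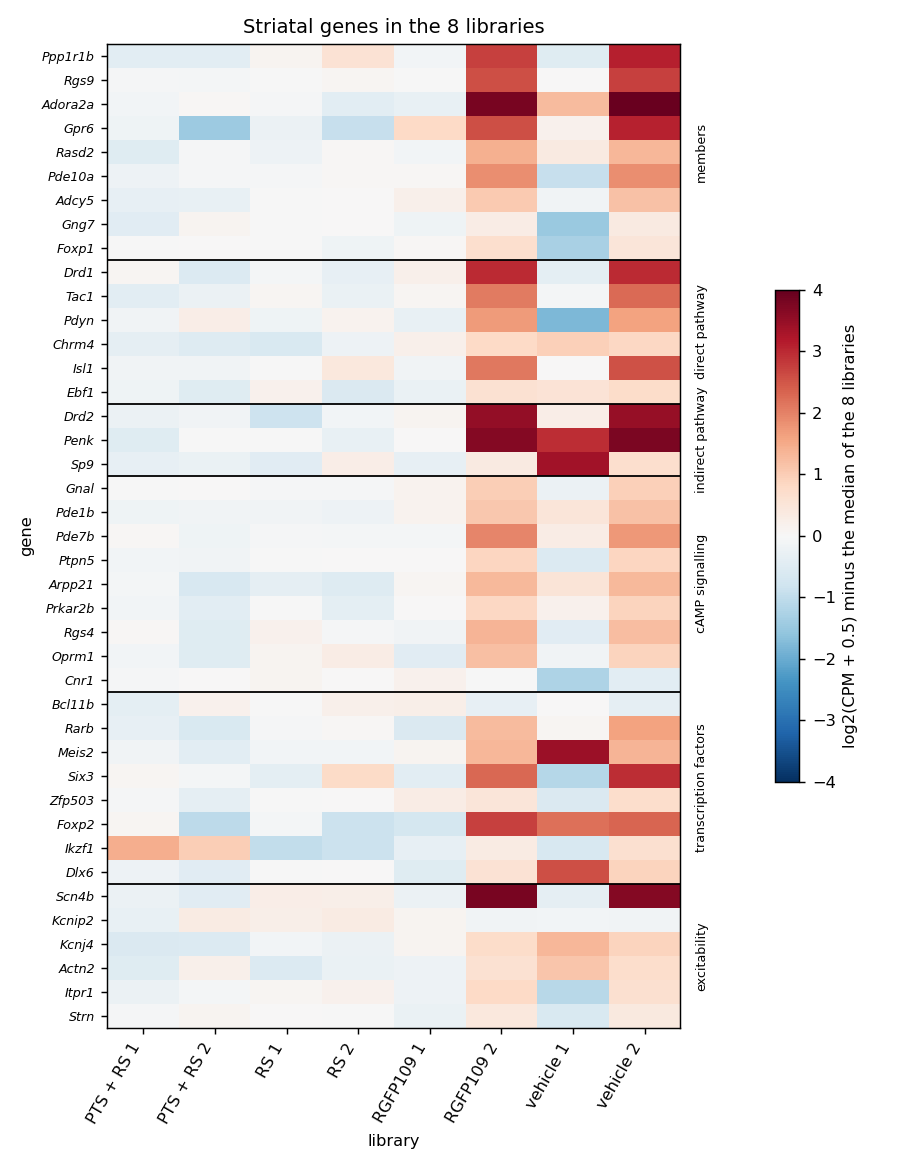
Colour gives log2(CPM + 0.5) of the 9 genes and the further striatal genes (rows, in groups by role) in 8 libraries (columns), minus the median of the 8 libraries for each gene. The columns of RGFP109 replicate 2 and vehicle replicate 2 are high for most genes, for example Drd1 (49.2 and 49.0 CPM), and the column of vehicle replicate 1 is high for Penk, Sp9, Meis2 and Dlx6.

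PTS + RS was set against RS to ask what the stroke adds to restraint stress in cortex, and none of the 9 striatal genes was called in either direction, where 2.12% of 17581 genes were called higher and 0.091% lower by the quasi-likelihood test of edgeR (Benjamini-Hochberg adjusted). Of the 9, 7 had a log2 fold change below 0, with a median of -0.15 beside -0.0015 for all tested genes. Ppp1r1b fell by 0.78 ± 0.157 (SE) on the log2 scale at an adjusted p of 0.0475, a level at which 0.586% of genes were lower, but missed the limit on fold change. Its levels were 33.1 ± 0.0919 CPM (SD, n = 2) in PTS + RS and 56.8 ± 13.3 CPM (SD, n = 2) in RS, and the groups did not overlap. The RS libraries (47.4 and 66.3 CPM) differed from each other more than the PTS + RS libraries did, and they decided the call. Without RS replicate 1 the log2 fold change was -1.001 at an adjusted p of 0.0207, which made Ppp1r1b a call, and without RS replicate 2 it was -0.52 at an adjusted p of 0.253. Over all alternatives the adjusted p of Ppp1r1b ranged from 1.86e-09 (no filter on low counts) to 0.253, and it was 0.0641 by limma-voom. Adcy5 had a log2 fold change of -0.30 ± 0.0700 at an adjusted p of 0.0713 (0.0057 to 0.638 over the alternatives), with groups that did not overlap. Rgs9 had a log2 fold change of -0.10 ± 0.131, also without overlap between groups, a pattern that 24.5% of all genes showed in the lower direction. The other 6 overlapped between groups. The intervals of Pde10a (-0.31 to 0.09), Foxp1 (-0.11 to 0.29) and Rgs9 (-0.41 to 0.21) stayed well inside 1 on the log2 scale, while that of Gpr6 (-2.01 to 1.54) left a wide range. Gpr6, Rasd2 and Gng7 changed sign when 1 library was left out.

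Markers of other cells moved between these groups. The microglial list (10 genes) summed to 1386 and 1178 CPM in the PTS + RS libraries and to 320.1 and 290 CPM in the RS libraries. The astrocyte list (10 genes) summed to 7927 and 6731 CPM against 4558 and 4592 CPM. Of its genes, 10 of 10 had a log2 fold change above 0, beside 8736 of 17581 tested genes. By edgeR's quasi-likelihood test 5 of the 10 were higher at an adjusted p under 0.05, beside 521 of the 17581. Gfap, an intermediate filament of reactive astrocytes, had a log2 fold change of 2.27. The choroid plexus list (10 genes) summed to 2542 and 224 CPM in the PTS + RS libraries and to 2777 and 5588 CPM in the RS libraries, with RS replicate 2 the highest for this list and for Ppp1r1b. Their part in the difference of Ppp1r1b was not tested. Of the 32 further striatal genes tested, 10 had a log2 fold change above 0 and 22 below. Only Ikzf1 was called, with a log2 fold change of 2.37 at an adjusted p of 0.00345 by edgeR's quasi-likelihood test, and this transcription factor is also expressed by microglia and lymphocytes. The medians were -0.05, -0.08, -0.07, -0.20 and -0.26 for the lists of direct pathway, indirect pathway, cyclic AMP signalling, transcription factors and excitability.

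RGFP109 was compared with vehicle to ask whether the inhibitor changed expression in PTS + RS mice. None of the 9 genes and none of 17565 genes was called in either direction (0.0%) by the quasi-likelihood test of edgeR (Benjamini-Hochberg adjusted), while 0.501% of genes were higher and 0.672% lower at an unadjusted p under 0.05, and DESeq2 called 1 gene lower. The 9 genes had log2 fold changes between -0.34 (Gpr6) and 0.54 (Foxp1), 5 below 0 and 4 above, and the groups overlapped for all 9 (12.8% of all genes were higher and 13.8% lower without overlap). Each group holds a cortex-labelled and an amygdala-labelled library, so that the spread within groups was as large as the difference between regions. Ppp1r1b averaged 169.9 ± 182 CPM (SD, n = 2) with RGFP109 and 209 ± 252 CPM (SD, n = 2) with vehicle. The interval of its log2 fold change ran from -3.84 to 3.24, and a p that misses the threshold here does not show that the levels were alike. The replicate number marks the labelled region, and with it as a block the intervals were narrower. This block sets RGFP109 replicate 1 beside vehicle replicate 1, the library with olfactory bulb genes, so its values carry that difference in tissue. With the block Ppp1r1b was at 0.01 ± 0.264 (SE, interval -0.69 to 0.70) and Rgs9 at -0.11 ± 0.182 (interval -0.59 to 0.37). The block moved Adora2a to -0.86 ± 0.438, Pde10a to 0.50 ± 0.301, Gng7 to 0.63 ± 0.384 and Foxp1 to 0.77 ± 0.333, and all 9 intervals still held 0, with adjusted p of 1.0. Without vehicle replicate 1 and without the block, the log2 fold changes lay between -1.19 (Ppp1r1b and Gpr6) and -0.10 (Foxp1). The vehicle side of that fit was amygdala-labelled only. In the main fit none of the 33 further striatal genes was called, with 15 above and 18 below 0. The list medians were -0.24 for the direct pathway, -0.62 for the indirect pathway, 0.10 for cyclic AMP signalling, -0.42 for transcription factors and 0.11 for excitability.

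Within a labelled region RGFP109 and vehicle are represented by 1 library each, and no test was possible. Between the amygdala-labelled libraries the log2 ratio of RGFP109 to vehicle lay between -0.54 (Gpr6) and 0.19 (Foxp1), with a median of -0.12, and no gene of the 9 differed by 2-fold or more, where 1.91% of all tested genes were higher and 2.0% lower by that much. Between the cortex-labelled libraries it lay between -1.77 (Adora2a) and 1.36 (Foxp1), with a median of 0.40. Gng7 (1.32) and Foxp1 were more than 2-fold higher and Adora2a more than 2-fold lower with RGFP109, where 8.78% of all tested genes were higher and 8.25% lower by that much. The vehicle library of this pair is the one with olfactory bulb genes, and treatment and that difference in tissue cannot be told apart.

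Across the 8 libraries the 9 genes moved together. After centring log2(CPM + 0.5) within each table, the Pearson correlation of each gene with the mean of the other 8 ranged from 0.791 (Gng7) and 0.800 (Foxp1) to 0.988 (Rgs9), over 8 libraries. The points share the separation of the 2 amygdala-labelled libraries from the rest, so these values are a description and not a test. Without vehicle replicate 1 they ranged from 0.707 (Gng7) to 0.995 (Rgs9) over 7 libraries. Outside the striatal lists, the 10 genes whose profile was closest to the mean of the 9 were Kctd1 (r = 0.9998), Ngef, Stk32c, Klf9, Arntl, Gm43859, Slc9a5, Camk2n1, A230006K03Rik and Pcsk2os2 (r = 0.9883), among 16947 genes, and without vehicle replicate 1 their r was at least 0.984. Ngef, a guanine nucleotide exchange factor, was at 302 and 309 CPM in the amygdala-labelled libraries and between 84.9 and 106 CPM in the cortex-labelled libraries. Camk2n1, an inhibitor of calmodulin-dependent kinase, was at 2012 and 2264 CPM against 657 to 868 CPM. Arntl, a circadian transcription factor, shows how the centring bears on this list, since it was at 40.0 and 40.3 CPM in the amygdala-labelled libraries, 24.7 and 21.6 CPM in the cortex-labelled libraries of the same table and 39.7 to 42.8 CPM in the PTS + RS and RS libraries.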

How the data were processed

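RNA-seq counts of 8 libraries were used. As the methods and labels state, the authors mapped paired-end reads with STAR 2.4.0 to GRCm38 (mm10) and deposited raw counts per gene from HTSeq 0.6.1. The deposited FPKM are the counts divided by gene length and by a factor for each library. The strand setting of counting is not given in the sources used here. Deposited fold changes, p-values and group means of the authors' comparisons were not used, and neither were 8 further columns of normalized values for single libraries. The genes of the RGFP109 table were matched to identifiers by coordinates (28229 of 28229).

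Genes with low counts were removed by filterByExpr in edgeR 4.0.16 (R 4.3.3), and TMM scaling and the quasi-likelihood test were applied within each table (17581 and 17565 genes), with calls where the adjusted p was below 0.05 and the log2 fold change reached 1 in size. DESeq2 1.42.0, limma-voom (limma 3.58.1), other scaling, no filter, a replicate block and leaving out each library were alternatives. Scripts were tested on simulated data. Python 3.11.15, pandas 2.3.3 and matplotlib 3.10.9 were used for summaries and figures. Coefficients of variation within groups of 11.4% (PTS + RS against RS), 32.1% (RGFP109 against vehicle) and 26.5% (labelled regions) limit precision more than counting does, except for Gpr6 and Adora2a in PTS + RS against RS. The value for RGFP109 against vehicle includes the spread between labelled regions. That for labelled regions includes the spread between treatments and the departure of vehicle replicate 1. In the RGFP109 and vehicle libraries the replicate number marks the labelled tissue, and same-numbered libraries deviated together (correlation over genes 0.299). All 9 genes were named in each comparison, other striatal lists by counts with called genes or the highest and lowest gene named, and the 10 genes closest in profile by correlation. Further genes were named after their values were seen. Some list genes are counted in the totals but not reported here by name. The 9 genes and all lists were chosen with earlier results of these data known.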

Additional observations from a re-analysis of the deposited data

Results flagged for a closer look

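For 5 genes the RGFP109 to vehicle ratio pointed in opposite directions in the cortex-labelled and the amygdala-labelled libraries, which is what drew attention to them. The difference was not tested, since each ratio rests on 1 library against 1. The share of all genes with opposite directions was not counted, so these 5 are not set apart from other genes. Some amygdala-labelled ratios lay near 0 (-0.06 for Gng7 and 0.07 for Rasd2), where the direction says little. The cortex-labelled log2 ratio minus the amygdala-labelled one was 0.78 for Ppp1r1b (0.40 against -0.38), 1.29 for Gpr6 (0.76 against -0.54), 0.47 for Adcy5 (0.35 against -0.12) and 1.38 for Gng7 (1.32 against -0.06), and it was -0.55 for Rasd2 (-0.49 against 0.07). The cortex-labelled ratios have vehicle replicate 1 as their base, the library in which the 10 olfactory bulb genes summed to 1618 CPM, and its part in the difference was not tested. No group held enough libraries for a check of single outlying libraries.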

How the results depend on the processing

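With 2 libraries in each group, single libraries decided several values. For the labelled regions, the 9 genes kept a positive log2 fold change under each alternative run, and the number called higher was 0 by edgeR's quasi-likelihood test (7 of 9 at an unadjusted p under 0.05), 7 by DESeq2 (259 genes higher and 85 lower in all), 2 with no filter on low counts (13 genes higher), 0 with limma-voom, another scaling or treatment as a term, and 0 to 9 when 1 library was left out (0 to 1369 genes higher, 0 to 976 lower). The fits without RGFP109 replicate 2 or vehicle replicate 2 gave no call. The cause of the shift with DESeq2 or without the filter was not tested. For PTS + RS against RS, 373 genes were called higher and 16 lower, which became 604 and 155 with no filter, 397 and 32 with DESeq2, and 197 to 637 and 7 to 190 when 1 library was left out, and 0 or 1 of the 9 genes was then called lower. The log2 fold changes that changed sign there ranged over -1.88 to 0.50 for Gpr6, -0.43 to 0.022 for Rasd2 and -0.45 to 0.11 for Gng7. For RGFP109 against vehicle, 0 genes were called, 1 was called lower by DESeq2 and 0 to 8 lower when 1 library was left out, 8 without vehicle replicate 2. Leaving out a library changed the sign for all 9 genes, with ranges of -2.34 to 2.45 for Ppp1r1b, -2.01 to 1.82 for Rgs9, -3.73 to 1.71 for Adora2a, -1.62 to 2.04 for Gpr6, -1.06 to 0.49 for Rasd2, -0.99 to 2.18 for Pde10a, -0.49 to 0.84 for Adcy5, -0.29 to 1.59 for Gng7 and -0.10 to 1.71 for Foxp1, and limma-voom gave 0.18 for Gpr6. Fits without a library leave an unequal mix of labelled regions in the groups.

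With the replicate number as a block, RGFP109 against vehicle changed the sign of Ppp1r1b (0.0065, against -0.30 without it) and Gpr6 (0.038, against -0.34), gave larger values of the same sign for Adora2a (-0.86 against -0.27), Pde10a (0.50 against 0.19), Rasd2 (-0.21 against -0.10), Adcy5 (0.11 against 0.03) and Gng7 (0.63 against 0.37), and called 0 of the 9 genes. That block sets RGFP109 replicate 1 beside vehicle replicate 1, the library with olfactory bulb genes. For PTS + RS against RS the libraries share only a number (correlation over genes of the replicate differences between groups 0.0352), and the block gave 443 genes higher and 32 lower and changed no call among the 9. Levels in CPM moved by 0.991 to 1.01 times with TMM over all 8 libraries and by 0.977 to 1.04 times without TMM. Depth limits both receptors in PTS + RS against RS, where counting alone gives a coefficient of variation of 21.3% to 50% for a library's Gpr6 (4 to 22 counts) and 14.4% to 18.0% for Adora2a (31 to 48 counts), beside 11.4% between replicates over all genes. For the other 7 genes it is at most 6.27%.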
